A study of Mus musculus with 12 samples.

Results

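The respiratory chain genes described here are the nuclear genes for subunits of complexes I to V of oxidative phosphorylation, with some of their assembly factors, in liver and brain tissue of Mettl5 KO mice and controls. They were chosen by symbol: protein-coding genes on the autosomes or X whose symbol starts with Ndufa, Ndufb, Ndufc, Ndufs, Ndufv, Sdh (a to d), Uqcr, Cox4, Cox5, Cox6, Cox7, Cox8 or Atp5, with pseudogenes and 1 further gene left out. This gave 93 of the 55487 genes of the count table. Of these, 36 belong to complex I, 4 to complex II, 8 to complex III, 20 to complex IV and 17 to complex V, and 8 are the complex I assembly factors Ndufaf1 to Ndufaf8, which share the prefix but are not part of the finished complex. Ndufa4 and its paralog Ndufa4l2 were counted with complex IV. Atp5s, whose product is no core subunit, fell under complex V by its symbol, and Atp5o is present as a main gene and as a separate readthrough entry.

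The respiratory chain sits in the inner mitochondrial membrane. Complexes I and II pass electrons from NADH and succinate to ubiquinone, complex III passes them to cytochrome c, and complex IV passes them to oxygen. Complexes I, III and IV pump protons, and complex V, the ATP synthase, uses the proton gradient to make ATP. Most subunits are encoded in the nucleus and imported, whereas a small set, including the catalytic core of complex IV, is encoded by mitochondrial DNA. Hepatocytes and neurons are both rich in mitochondria, and several complex IV subunits exist as isoforms that muscle, lung or testis prefer.

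The RNA sequencing libraries hold total RNA of 2 tissues from each of 6 mice, 3 libraries per group: WT mice B, D and E and KO mice A, C and F, each giving a liver and a brain. METTL5 is the methyltransferase that places an N6-methyladenosine on 18S rRNA. The KO allele came from a line with a floxed Mettl5 exon 2, made in hybrid C57bl/6 and 129S6 embryonic stem cells and backcrossed to B6, in which Cre driven by the CMV promoter removed that exon in the whole body. The control libraries are labelled WT, while the text of the study also speaks of heterozygotes as controls for its RNA sequencing, so WT means here only what the labels say. The labels state no sex, age, litter or batch, and each library is 1 tissue of 1 mouse. The study speaks of its sequenced mice as pairs, but neither it nor the labels say which KO mouse goes with which WT mouse, so the genotypes were compared without pairing, and within-pair differences were not tested. The comparisons were KO against WT in each tissue, which asks what the loss of METTL5 did to these transcripts, the difference between those effects, and liver against brain within WT and within KO.

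Library totals ran from 14403309 to 21623180 counts, and the 93 genes took 0.578 to 0.799% of them, or 0.768 to 0.902% of the counts outside the mitochondrial genome. The mitochondrial genome itself took 13.2 to 19.2% of the counts in WT liver and 9.56 to 11.2% in KO liver, but 9.33 to 19.9% in WT brain and 23.3 to 33.7% in KO brain, so the genotypes did not overlap and differed in opposite directions in the 2 tissues. Its part in the comparisons of genotypes was not tested beyond a fit without the mitochondrially encoded genes. In that fit 0 of the 85 group genes tested in liver and 0 of the 86 in brain were called. Over all genes tested it called 0 of 14116 in liver and 11 of 17053 in brain. Mettl5, summed over all its exons, stood at 13.2 ± 5.03 CPM (counts scaled by library size) in WT liver and 4.93 ± 0.289 in KO liver (SD, n = 3), and at 5.24 ± 1.66 and 2.91 ± 0.265 in brain, with no overlap between genotypes in either tissue. Its log2 fold change was -1.44 in liver (SE 0.27, edgeR adjusted p 0.383) and -0.84 in brain (SE 0.27, edgeR adjusted p 0.373), so it did not pass the test, and the counts also take in exons outside the deleted one. Mice E and F had almost no counts from Y-linked genes and high Xist, so each genotype held 1 mouse of that kind. The summed hepatocyte markers stood at 78160 to 103795 CPM in liver and 10.8 to 28.2 CPM in brain, and the neuronal markers at 2623 to 3043 CPM in brain and 10.7 to 21.5 CPM in liver, so each tissue carried the markers of its label. Markers of brain regions differed between the genotypes: 7 olfactory bulb markers summed to 4.69 to 9.94 CPM in WT brain and 31.3 to 47.0 CPM in KO brain, 7 cerebellar markers to 625 to 910 against 162 to 402 CPM, and 7 choroid plexus markers to 179 to 309 against 89.7 to 145 CPM. Their part in the brain comparisons was not tested. In bulk tissue, fewer cells of a type and less RNA per cell cannot be told apart.

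Promoters are shown for 6 of the genes named below, because these genes carry large tissue differences or, for Ndufaf4 and Atp5f1, KO and WT liver values that did not overlap, and because promoters of this gene group are known for a small set of transcription factor sites. RefSeq promoters (GRCm38.p6, 250 bases before to 50 after a start, on the gene's strand) were found for 75 of the 93 genes, 73 by symbol and 2 through a synonym. The capitals mark matches on either strand to the letters GCATGCGC (a core of the site of NRF1, a regulator of nuclear mitochondrial genes), CCGGAAGT (an ETS site, the kind that GABP binds), AAGATGGC (a YY1 site), TGACGTCA (a cyclic AMP response element), GGGCGGGG (an Sp1 GC box) and CCAAT. The windows are chr9:50603800-50604099 (minus strand) for Sdhd, chr10:80406772-80407071 (minus strand) for Uqcr11, chr13:30545267-30545566 (minus strand) for Uqcrfs1, chr3:105959214-105959513 (minus strand) for Atp5f1, chr2:140170396-140170695 (plus strand) for Ndufaf5 and chr4:24897833-24898132 (plus strand) for Ndufaf4, and gene positions below are on the same build.
Sdhd: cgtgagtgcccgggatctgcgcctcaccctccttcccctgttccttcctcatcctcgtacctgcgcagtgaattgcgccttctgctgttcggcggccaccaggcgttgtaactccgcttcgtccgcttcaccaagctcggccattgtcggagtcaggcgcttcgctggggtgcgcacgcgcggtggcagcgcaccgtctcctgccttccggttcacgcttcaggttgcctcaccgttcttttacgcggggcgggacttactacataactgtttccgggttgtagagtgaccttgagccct
Uqcr11: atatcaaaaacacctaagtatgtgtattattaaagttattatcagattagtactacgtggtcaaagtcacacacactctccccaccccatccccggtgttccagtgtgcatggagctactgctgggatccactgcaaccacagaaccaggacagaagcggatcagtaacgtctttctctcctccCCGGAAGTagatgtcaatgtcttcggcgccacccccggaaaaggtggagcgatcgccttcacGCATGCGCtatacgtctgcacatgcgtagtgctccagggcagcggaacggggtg
Uqcrfs1: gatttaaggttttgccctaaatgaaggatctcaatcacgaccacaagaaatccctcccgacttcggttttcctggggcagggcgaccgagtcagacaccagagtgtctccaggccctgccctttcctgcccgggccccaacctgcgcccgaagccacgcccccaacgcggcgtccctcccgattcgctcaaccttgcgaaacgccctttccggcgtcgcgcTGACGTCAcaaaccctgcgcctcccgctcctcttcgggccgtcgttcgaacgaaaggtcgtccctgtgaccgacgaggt
Atp5f1: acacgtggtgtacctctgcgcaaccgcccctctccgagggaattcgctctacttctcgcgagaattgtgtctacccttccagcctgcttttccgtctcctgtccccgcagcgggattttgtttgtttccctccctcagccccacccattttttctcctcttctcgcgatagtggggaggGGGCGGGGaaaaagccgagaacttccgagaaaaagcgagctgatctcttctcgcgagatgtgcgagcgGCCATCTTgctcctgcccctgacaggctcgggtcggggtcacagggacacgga
Ndufaf5: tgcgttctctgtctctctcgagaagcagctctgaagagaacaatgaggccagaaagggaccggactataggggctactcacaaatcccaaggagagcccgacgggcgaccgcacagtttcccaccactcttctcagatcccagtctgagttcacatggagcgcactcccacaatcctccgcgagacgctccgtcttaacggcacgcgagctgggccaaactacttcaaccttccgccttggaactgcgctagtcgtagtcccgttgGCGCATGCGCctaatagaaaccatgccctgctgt
Ndufaf4: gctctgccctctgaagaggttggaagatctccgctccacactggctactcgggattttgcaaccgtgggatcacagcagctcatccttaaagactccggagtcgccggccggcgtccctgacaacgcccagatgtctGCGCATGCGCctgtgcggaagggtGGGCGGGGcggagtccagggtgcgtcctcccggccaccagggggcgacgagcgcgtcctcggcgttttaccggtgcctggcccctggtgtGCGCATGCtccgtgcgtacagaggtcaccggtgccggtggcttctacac
None of these letters was in the Sdhd window, which says nothing about the factors. The Uqcr11 window held an ETS site and an NRF1 core that spans the start, the Uqcrfs1 window a cyclic AMP element, and the Atp5f1 window an Sp1 box and, on the other strand, a YY1 site that spans the start. In Ndufaf5, and upstream of the start in Ndufaf4, the NRF1 core overlapped a second copy on the other strand, and Ndufaf4 held a further NRF1 core after the start and an Sp1 box.

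Across the 75 genes, the NRF1 core was present in 12 (16%), against 3.05% of the 27025 genes with a promoter and 5.43% of the 12011 of these that were tested between WT liver and WT brain. The YY1 site was present in 11 (14.7%), against 3.19% and 4.69%. The cyclic AMP element was found in 4 genes (5.33%, against 2.03% and 3.31%) and the ETS site in 5 (6.67%, against 4.31% and 7.91%). The Sp1 box stood in 16 (21.3%, against 19.6% and 35.0%) and CCAAT in 33 (44.0%, against 41.1% and 42.6%). Of the 11 genes with a YY1 site, 7 belong to the 32 complex I genes with a promoter, 3 to complex V and 1 is Ndufaf8, whereas the site was in 0 of 14 complex IV and 0 of 5 complex III genes. The NRF1 core stood in 9 of the 51 genes that were called higher in WT liver than in WT brain and in 3 of the other 24. These are matches of letters, given as a description.

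Levels per exon length (CPM per kilobase of merged exons, written RPKM here) spanned several orders of magnitude. The highest mean over the 12 libraries in each complex was that of Atp5a1 (234 RPKM), the alpha subunit of the catalytic head of ATP synthase, followed by Cox4i1 (165), a nuclear subunit of complex IV, Uqcrb (131), a ubiquinone-binding subunit of complex III, Ndufb10 (101), an accessory subunit of the membrane arm of complex I, and Sdha (97.7), the flavoprotein of complex II. The complex I assembly factors were lower, and the highest of them, Ndufaf8, stood at 16.8 RPKM. The median RPKM was 70.7 over the complex III genes, 55.5 over complex II, 34.6 over complex V, 31.9 over complex I, 29.6 over complex IV and 6.80 over the assembly factors. Merged exons include retained introns of some transcripts, so genes with a long merged length, such as Atp5l (6443 bases), read low on this scale. Same-strand exons of other genes overlapped Ndufb2, Ndufb8, Ndufb9, Atp5g2 and Atp5o, and how much reads there moved their counts was not tested. Of 12 pseudogene entries of these genes, 4 had more than 3 counts in a library, with 16 counts at most.

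**Figure D1:**
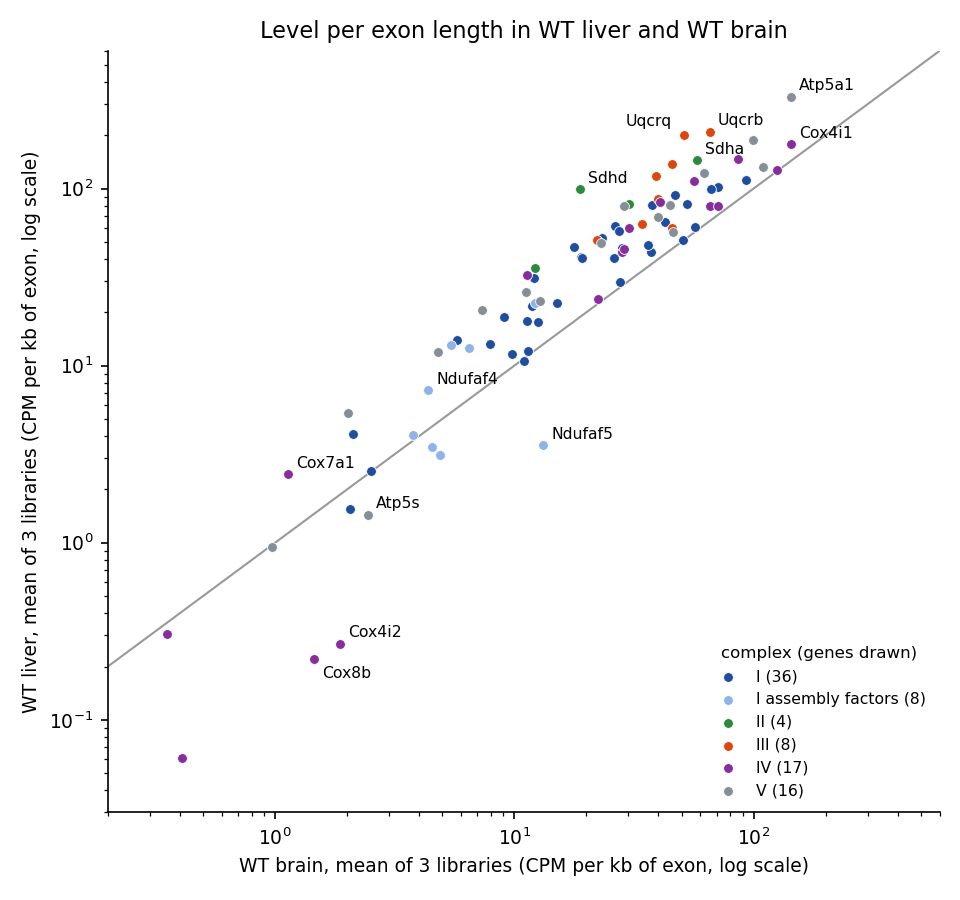
Mean level of each gene in WT brain (x axis) and WT liver (y axis), both in CPM per kilobase of exon on log scales, with 1 point per gene coloured by complex and a grey line where both are equal. Genes with a mean of 0 in either tissue are not drawn. Most points lie above the line, with Sdhd and Uqcrq well above it and Ndufaf5 and Cox4i2 well below it.

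Of each pair of complex IV isoforms, 1 form held nearly all of the signal in both tissues. Cox4i1 stood at 179 ± 16.3 RPKM in WT liver and 144 ± 11.2 in WT brain (SD, n = 3), against 0.269 ± 0.466 and 1.87 ± 0.312 for Cox4i2, the form known from lung. Cox6a1 stood at 146 ± 15.9 and 85.7 ± 8.23 RPKM, and the muscle form Cox6a2 had 0 counts in WT liver and 1.22 ± 0.912 RPKM in WT brain. The same order was seen for Cox6b1 (84.3 ± 11.6 and 40.5 ± 6.38 RPKM) and the testis form Cox6b2 (0.0606 ± 0.0591 and 0.410 ± 0.174). Cox8a had nearly the same level in both tissues, at 127 ± 12.9 and 125 ± 20.6 RPKM, while Cox8b, a form of heart and muscle, reached 25 counts in 1 WT brain library and at most 7 in the others.

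For the COX7A family the order was Cox7a2 (43.7 ± 5.45 RPKM in WT liver, 28.1 ± 3.03 in WT brain), Cox7a2l, a supercomplex factor (23.8 ± 6.33 and 22.3 ± 3.20), and the muscle form Cox7a1 (2.44 ± 0.226 and 1.13 ± 0.308). The brain levels of Cox7a2 and Cox7a2l differed by less than the sum of their SDs. Cox7b was at 110 ± 8.58 RPKM in WT liver and 56.3 ± 9.66 in WT brain, whereas Cox7b2, a form of testis, had 0 counts in all 6 liver libraries, which allows up to 3 counts in each, and 2 to 11 counts in brain. Ndufa4 exceeded Ndufa4l2, a gene induced by low oxygen, at 45.8 ± 6.79 against 0.307 ± 0.299 RPKM in WT liver and 28.9 ± 5.03 against 0.353 ± 0.269 in WT brain. The ATP synthase c subunit genes Atp5g1 and Atp5g2 stood at 11.9 ± 1.17 and 5.42 ± 0.168 RPKM in WT liver and at 4.82 ± 0.444 and 2.02 ± 0.558 in WT brain. Cox8c had 0 counts in all 12 libraries, again with up to 3 counts allowed in each. The Atp5o readthrough entry also had 0 counts in all 12. Of its 530 exon bases, 243 lie in same-strand exons of the main Atp5o gene and 287 in those of Donson, so its level was not read.

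Between WT liver and WT brain, 68 of the 86 genes that passed the filter on low counts differed (edgeR quasi-likelihood test, Benjamini-Hochberg adjusted p under 0.1 over all genes tested). Of these, 62 were higher in liver (72.1%, against 35.4% of all genes tested) and 6 lower (6.98%, against 42.9%). The median log2 fold change was 0.86, against -0.16 over all 17694 genes. Summed over the group, the CPM were 9481 ± 683 in WT liver and 5143 ± 393 in WT brain (SD, n = 3), a ratio of 1.84. With an offset that levels each library over GC content and exon length, the 62 and 6 became 33 higher (38.4%, against 40.6% of all genes under that offset) and 30 lower (34.9%, against 42.5%), with a median of 0.00. By its construction such an offset also removes a tissue difference that genes of one length and GC content share, and the genes here are short, with a median exon length of 1697 bases against 3996 for all genes tested. Which of these 2 scales is nearer to the amounts of RNA in the tissues was not tested.

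Complex II, which links the citric acid cycle to the chain, was higher in liver in 4 of 4 genes (median log2 fold change 1.51), with summed CPM of 1017 ± 87.4 in WT liver against 368 ± 29.8 in WT brain. Sdhd, a membrane anchor of the complex, had the largest difference among the genes higher in liver, with 122, 118 and 125 CPM in WT liver and 22.4, 26.4 and 20.7 CPM in WT brain (mice B, D and E). Every liver value lay far above every brain value. The fold was 5.28 (log2 2.40, SE 0.16, edgeR adjusted p 1.99e-07). The other anchor, Sdhc, showed 125, 109 and 114 CPM against 38.2, 43.6 and 36.6 CPM, a 2.95-fold difference (log2 1.56, SE 0.15, edgeR adjusted p 4.38e-06). With the GC and length offset, all 4 genes were again called higher in WT liver, with a median of 1.13, and Sdhd stood at a log2 of 1.10.

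Complex III was higher in liver in 8 of 8 genes (median log2 fold change 1.40), with summed CPM of 1316 ± 103 against 511 ± 37.6. Uqcrq, a small accessory subunit, stood at 387, 391 and 330 CPM in WT liver and at 87.4, 104 and 90.8 CPM in WT brain, 3.95-fold apart (log2 1.98, SE 0.17, edgeR adjusted p 1.39e-06). Uqcrb showed 189, 187 and 175 CPM against 63.5, 53.7 and 55.0 CPM (3.22-fold). Uqcr11, another small subunit, was 3.03-fold and Uqcrfs1, the Rieske iron-sulfur protein, 3.01-fold higher in liver, and the tissues did not overlap for either. The hinge protein gene Uqcrh, named after its values were seen, had the smallest difference (log2 0.41, SE 0.18, edgeR adjusted p 0.0596). With the GC and length offset, 6 of the 8 genes were called higher in WT liver and 1 lower, with a median of 0.43. Under that offset the log2 fold change was 0.81 for Uqcrq, 0.53 for Uqcrb and 0.28 for Uqcrfs1, against 1.98, 1.69 and 1.59 without it, and all 3 stayed called, while Uqcr11 stood at 1.80.

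Complex V was called higher in liver in 12 of 16 genes tested and lower in 1, with a median of 0.96 and summed CPM of 3208 ± 225 in WT liver against 1618 ± 165 in WT brain. Its largest differences, named after they were seen, were those of the small central stalk subunits Atp5e (log2 1.49, SE 0.15) and Atp5d (1.48, SE 0.18). The lower gene was Atp5s, a low-level gene with 2.81, 2.47 and 3.54 CPM in WT liver and 5.86, 4.25 and 4.82 CPM in WT brain (log2 -0.75, SE 0.29, edgeR adjusted p 0.0351), and without mouse B it was not called (log2 -0.62, edgeR adjusted p 0.197). The offset moved it to -1.72. With the GC and length offset, complex V held 10 higher and 4 lower calls.

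Complex I had 25 of 36 genes higher in liver and 1 lower, with a median of 0.65, and complex IV had 9 of 14 higher and 1 lower, with a median of 0.66. The direction of both turned with the GC and length offset, where complex I had 10 higher and 14 lower calls (median -0.09) and complex IV 2 higher and 6 lower (median -0.10). The lower complex I gene was Ndufb2, a membrane arm subunit, with 8.44, 7.88 and 9.83 CPM in WT liver and 11.6, 12.4 and 10.9 CPM in WT brain (log2 -0.41, SE 0.19, edgeR adjusted p 0.0711). Its call was lost with mouse as a replicate block (edgeR adjusted p 0.116), with no filter on low counts (edgeR adjusted p 0.109), with the offset (log2 -0.08), without mouse B (edgeR adjusted p 0.204) and without mouse D (edgeR adjusted p 0.317). In complex IV, Cox5a had the largest difference (log2 1.54, SE 0.16), while Cox8a (log2 0.03, SE 0.17) and Cox7a2l (0.10, SE 0.21) did not pass the test. Cox5a, Cox8a and Cox7a2l were named here after their values were seen. Cox4i2, on chr2:152754173-152765037, was the lower gene of complex IV, with 0, 0 and 9 counts in WT liver and 24, 38 and 43 in WT brain (log2 -2.74, SE 0.87, edgeR adjusted p 0.0149). The liver counts come from mouse E alone. Without that mouse both WT liver libraries held 0 counts and the fitted log2 was -7.64, a value that depends on the prior count and is no bound. This isoform is also known from pericytes, and 7 pericyte markers summed to 1657 to 2077 CPM in WT liver, mostly from Vtn, which hepatocytes also make, and to 81.5 to 85.5 CPM in WT brain. Their part was not tested.

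Of the complex I assembly factors, 4 of 8 were higher in liver and 3 lower (median 0.43). Ndufaf5, a hydroxylase and methyltransferase-like assembly factor on chr2:140170649-140203689, had the most negative fold change of the assembly factors, with 6.08, 7.49 and 5.59 CPM in WT liver and 26.3, 22.8 and 21.6 CPM in WT brain. It was 3.67-fold lower in liver (log2 -1.88, SE 0.19, edgeR adjusted p 7.22e-06). Ndufaf3 showed 7.26, 4.62 and 5.16 CPM against 9.09, 8.70 and 8.93 CPM (log2 -0.64, edgeR adjusted p 0.0280), a call that was lost without mouse D or E (edgeR adjusted p 0.128 and 0.126). Ndufaf7, the arginine methyltransferase of complex I assembly, showed 11.4, 12.03 and 13.0 CPM against 15.7, 15.2 and 16.5 CPM (log2 -0.37, edgeR adjusted p 0.0656). The call of Ndufaf7 was lost with mouse as a replicate block (edgeR adjusted p 0.104), with no filter on low counts (edgeR adjusted p 0.108) and when any 1 mouse was left out (edgeR adjusted p 0.134 to 0.202). With the GC and length offset 5 of the 8 were called lower and 1 higher, and Ndufaf5, Ndufaf3 and Ndufaf7 moved to -3.13, -1.38 and -0.71. Of the 6 genes lower in WT liver, Ndufaf5 and Cox4i2 were called under all 9 alternatives, Atp5s under 8, Ndufaf3 under 7 and Ndufb2 and Ndufaf7 under 4 each.

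The KO mice, which share no animal with the WT mice, gave a like picture between tissues. Of 84 genes tested, 61 were higher in KO liver than in KO brain (72.6%, against 36.2% of all genes tested) and 5 lower (5.95%, against 44.1%), with a median of 0.75 against -0.17 over all genes. With the GC and length offset there were 32 higher (38.1%, against 41.5% of all genes) and 26 lower (31.0%, against 42.2%). Of the 66 genes called in WT and tested in both, 59 were called in the same direction in KO and 0 in the opposite one, against 12144 and 50 of 13299 over all genes. Complex II and complex III again had 4 of 4 and 8 of 8 genes higher, while the assembly factors had 3 of 8 higher and 3 lower, with a median of -0.32. Under the offset these became 3 of 4 higher for complex II, 7 higher and 1 lower for complex III, and 1 higher and 4 lower for the assembly factors. Sdhd stood at 105, 122 and 103 CPM in KO liver and 23.6, 17.3 and 17.0 CPM in KO brain (mice A, C and F), 5.69-fold apart, and Uqcrq was 3.44-fold, Uqcrfs1 3.39-fold, Sdhc 3.12-fold, Uqcr11 2.89-fold and Uqcrb 2.62-fold higher. Ndufaf5 was 3.91-fold lower in KO liver (log2 -1.97, SE 0.23, edgeR adjusted p 2.80e-05). Ndufb2, Atp5s and Ndufaf7 were lower there too (log2 -0.73, -0.85 and -0.33), whereas Ndufaf3 did not pass the test (log2 -0.32, SE 0.22, edgeR adjusted p 0.202). Of these calls, that of Ndufaf7 was lost with mouse as a replicate block (edgeR adjusted p 0.151 against 0.0911), with no filter on low counts (edgeR adjusted p 0.179) and without any 1 mouse (edgeR adjusted p 0.135 to 0.425), and that of Atp5s without mouse A (edgeR adjusted p 0.178). With the GC and length offset Ndufb2 was not called (log2 -0.25) and Ndufaf3 was (log2 -1.24), and Sdhd, Uqcrb, Uqcrq and Uqcrfs1 moved to 1.26, 0.87, 0.62 and 0.53 and Ndufaf5 to -2.97, all still called.

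**Figure D2:**
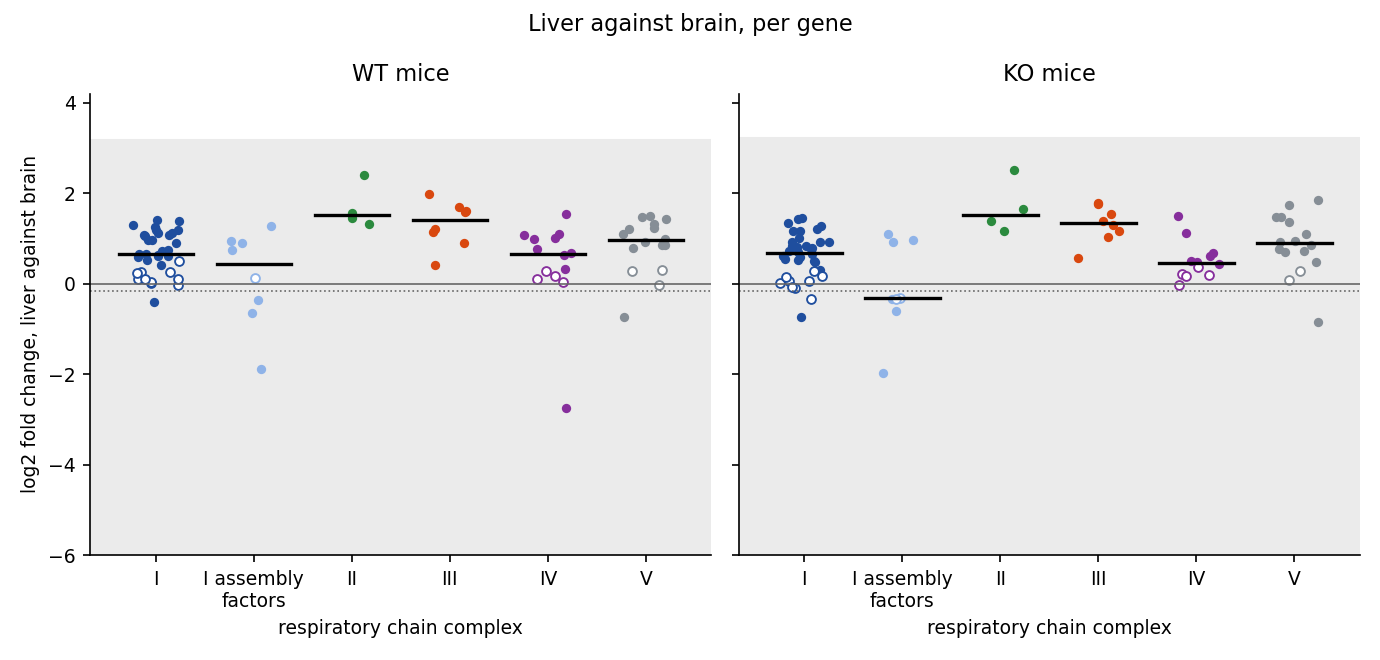
Log2 fold change of liver against brain for each gene by complex, in WT mice (left) and KO mice (right). Filled points passed the test at an adjusted p under 0.1 and open points did not, black bars are medians, the grey band spans the 10th to 90th percentile of all genes tested and runs on below the axis, and the dotted line is their median. All complex II and complex III points lie above 0 in both panels.

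In KO against WT liver, no gene of the group was called (0 of 85 tested, against 0.0% of all 14075 genes tested), and DESeq2 likewise called 0 of the 86 to which it gave an adjusted p, against 1.1% of all such genes. At an unadjusted p under 0.05 there were 2 of the 85, both lower in KO, against 7.33% of all genes. The median log2 fold change was -0.07 (-0.00 over all genes), with 28 genes higher and 57 lower (6984 and 7091 over all genes). Of the 85 genes, 82 lay within 0.5 of 0, against 86.1% of all genes. The median SE was 0.14 here and 0.21 over all genes, so these shares do not compare genes of equal precision. Without mouse C the median was -0.17, with 14 higher and 71 lower, and without mouse A it was -0.03. Summed over the group, CPM were 9481 ± 683 in WT liver and 9352 ± 781 in KO liver (SD, n = 3), a ratio of 0.986, and the ranges overlapped. By complex, the ratio of KO to WT was 0.982 for complex I, 0.945 for II, 0.981 for III, 1.003 for IV, 1.002 for V and 0.881 for the assembly factors.

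Among the 7 genes whose KO and WT liver values did not overlap (8.24%, against 13.2% of all genes), 6 were lower in KO and 1 higher. Of all genes without overlap, 723 were lower in KO liver and 1136 higher. Cox7a1, the muscle form of a complex IV subunit on chr7:30184144-30186078, stood at 1.44, 1.27 and 1.20 CPM in WT liver (mice B, D and E) and at 0.463, 0.643 and 0.401 CPM in KO liver (mice A, C and F). These values rest on 16 to 22 counts per WT library and 6 to 9 per KO library. The log2 fold change was -1.39 (SE 0.44, edgeR p 0.0109, adjusted p 0.487). The summed skeletal muscle markers were at 0.159 to 0.424 CPM in WT liver and 0.0714 to 0.463 CPM in KO liver, with 7 and 8 of the 8 at or under 3 counts. The 5 heart muscle markers summed to 0.558 to 6.79 against 0.571 to 1.61 CPM, nearly all from Tnnt2, with Myh6, Myl2 and Nppa at 0 counts. The 5 brown fat markers summed to 38.6 to 469 against 29.2 to 619 CPM, nearly all from Elovl3 and Ppargc1a, which liver also makes, with Ucp1 at 0 counts in all 12 libraries. The 5 white fat markers did not overlap, at 4.97 to 14.2 CPM in WT liver and 2.71 to 4.48 CPM in KO liver. Of these, Fabp4 alone passed the filter on low counts (log2 -0.78, SE 0.31, edgeR p 0.0317, adjusted p 0.629), Cfd and Adipoq reached 103 and 28 counts in a WT library and at most 5 and 0 in KO, and their part in the Cox7a1 values was not tested.

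Ndufaf4, an assembly factor of the ubiquinone module of complex I on chr4:24898083-24905001, stood at 33.7, 26.0 and 25.6 CPM in WT liver and at 19.6, 23.6 and 17.1 CPM in KO liver, with all KO values under all WT values (log2 -0.53, SE 0.17, edgeR p 0.0123, adjusted p 0.493). Ndufab1, the mitochondrial acyl carrier protein that is also a complex I subunit, stood at 29.3, 28.3 and 27.2 CPM against 25.2, 24.7 and 22.3 CPM (log2 -0.26, SE 0.12, edgeR adjusted p 0.709). Atp5f1, a stator subunit of ATP synthase, stood at 203, 208 and 197 CPM against 164, 192 and 165 CPM (log2 -0.25, SE 0.13, edgeR adjusted p 0.740), with values from -0.33 to -0.00 among the alternatives, the last with the GC and length offset. The 1 gene with all KO values above WT was Atp5g2, with 9.16, 9.32 and 8.77 CPM in WT and 9.95, 12.4 and 10.1 CPM in KO (log2 0.22, SE 0.18, edgeR adjusted p 0.867), and 0.11 without mouse C or 0.12 with the offset. None of these differences passed the test.

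In KO against WT brain, no gene of the group was called either (0 of 89 tested by edgeR, against 0.064% of all 17188 genes, and 0 of 86 by DESeq2, against 1.58%). At an unadjusted p under 0.05 there were 2, 1 higher and 1 lower in KO, against 11.0% of all genes. The median was -0.02 (-0.00 over all genes), and 41 genes were higher and 48 lower (8558 and 8630 over all genes). Of the 89, 85 lay within 0.5 of 0, against 80.7% of all genes. The median SE was 0.15 here and 0.22 over all genes, so these shares do not compare genes of equal precision. Without mouse A the median was -0.11, with 24 higher and 65 lower. The summed CPM were 5143 ± 393 in WT brain and 4987 ± 392 in KO brain, a ratio of 0.970. By complex the ratio was 0.956 for I, 0.948 for II, 0.965 for III, 1.05 for IV, 0.932 for V and 1.06 for the assembly factors.

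Of the 8 genes whose KO and WT brain values did not overlap (8.99%, against 16.4% of all genes), 5 were lower in KO and 3 higher. Of all genes without overlap, 1367 were lower in KO brain and 1448 higher. Ndufv3, an accessory subunit of the NADH-binding arm of complex I, stood at 35.2, 42.0 and 36.1 CPM in WT and 32.7, 29.6 and 29.5 CPM in KO (log2 -0.30, SE 0.13, edgeR p 0.0499, adjusted p 0.455). Ndufv1, which carries the NADH site, stood at 62.9, 79.6 and 74.6 CPM against 58.9, 60.9 and 59.5 CPM (log2 -0.27, SE 0.13, edgeR adjusted p 0.470). Uqcrc1, a core subunit of complex III, stood at 123, 164 and 136 CPM against 121, 116 and 109 CPM (log2 -0.28, SE 0.14, edgeR adjusted p 0.483). In all 3 the highest WT value was that of mouse D. With the GC and length offset Ndufv1 stood at -0.10 and Uqcrc1 at -0.14, and without mouse D Uqcrc1 stood at -0.17. Cox7a1 also had all KO brain values under WT, at 0.505, 0.795 and 0.514 CPM against 0.382, 0.397 and 0.103 CPM, on 10 to 20 counts per WT library and 2 to 7 per KO library (log2 -1.05, SE 0.58, edgeR adjusted p 0.513). The skeletal muscle markers summed to 75.8 to 134 CPM in WT brain and 43.2 to 71.3 in KO brain, mostly from Pvalb, which neurons also make, the heart muscle markers to 5.57 to 6.16 and 6.18 to 8.47 CPM, and the brown fat markers to 71.6 to 91.8 and 93.3 to 116 CPM. Without mouse F the log2 fold change of Cox7a1 was -0.63. The part of these markers was not tested.

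The genes with all KO brain values above WT were Cox7c, a small complex IV subunit, Ndufa2 and Ndufaf7. Cox7c stood at 34.1, 34.7 and 33.0 CPM in WT and 45.3, 35.9 and 37.5 CPM in KO (log2 0.23, SE 0.14, edgeR adjusted p 0.545), or 0.12 without mouse A, and its sign turned with the GC and length offset (log2 -0.24). Ndufa2 and Ndufaf7 differed by 0.12 and 0.09 (edgeR adjusted p 0.702 and 0.806). Ndufa2 stood at 0.04 with the GC and length offset, Ndufaf7 stood at 0.05 without mouse D, and the sign of Ndufaf7 also turned with that offset (log2 -0.02). The 4 genes outside 0.5 were Ndufaf4 and the low-count Cox7a1, Cox6b2 and Cox4i2, of which Cox6b2 (log2 -0.62) and Cox4i2 (-0.57) had at most 16 and 43 counts in a brain library.

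**Figure D3:**
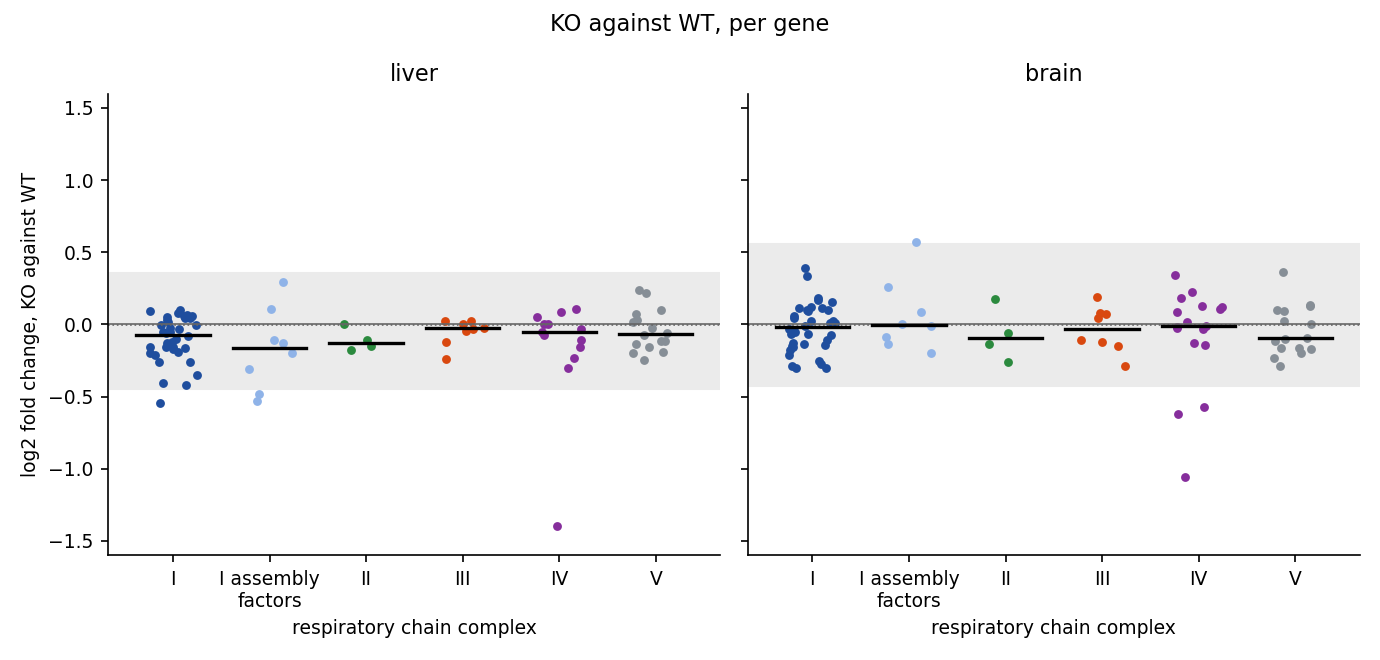
Log2 fold change of KO against WT for each gene by complex, in liver (left) and brain (right). Black bars are medians, the grey band spans the 10th to 90th percentile of all genes tested, and no point passed the test at an adjusted p under 0.1. The lowest point in each panel is Cox7a1, at -1.39 in liver and -1.05 in brain.

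The effect of KO in liver was then compared with that in brain, as an interaction of genotype and tissue over the 12 libraries. No gene of the group was called (0 of 89 by edgeR, against 0.0% of all 18944 genes), with 4 of 89 at an unadjusted p under 0.05 against 10.6% of all genes. With mouse as a replicate block, again 0 of the 89 were called, against 0.359% of all genes. In that fit 1 of the 89 was at an unadjusted p under 0.05 (1.12%, against 8.36% of all genes). DESeq2 called 1 of 86, Ndufaf4 (1.16%, against 2.08% of all genes with a DESeq2 adjusted p). Ndufaf4 had its KO values under WT in liver, as given above, while in brain it stood at 20.04, 13.0 and 17.99 CPM in WT and 28.8, 19.4 and 27.3 CPM in KO, where the lowest KO value, that of mouse C, lay under the highest WT value, that of mouse B (log2 0.57, SE 0.21, edgeR p 0.0222, adjusted p 0.395). The difference between the effects was -1.07 (SE 0.30, edgeR p 0.00292, adjusted p 0.235 without the block and 0.306 with it), and its DESeq2 adjusted p was 0.0646. The difference was negative under all 12 alternatives, from -1.35 without mouse C to -0.68 with the GC and length offset, with adjusted p from 0.0646 to 0.627. That offset also moved the effect in liver from -0.53 to -0.33 and that in brain from 0.57 to 0.29. In the brain comparison without a filter on low counts, Ndufaf4 was the only gene of the group that was called (edgeR adjusted p 0.0839), 1 of 91 or 1.10%, against 3.15% of all genes. Ndufaf4 was higher in WT liver than in WT brain (log2 0.75, edgeR adjusted p 0.00672) but not called between KO liver and KO brain (log2 -0.33, SE 0.20, edgeR adjusted p 0.165), where the sign turned with the GC and length offset (log2 0.35, edgeR adjusted p 0.0973). Without mouse C it was called lower in KO liver (log2 -0.61, edgeR adjusted p 0.0226), and without mouse A or F the log2 was -0.18 or -0.16. These comparisons share their libraries with those between genotypes.

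The next smallest p-values of the interaction were those of Cox7c and Cox7b, both small subunits of complex IV. Ndufv3, named after its values were seen, followed them (0.39, SE 0.18, edgeR p 0.0471, adjusted p 0.465). Cox7b lies on chrX:106015700-106022450. Cox7b stood at 145, 125 and 132 CPM in WT liver, 103, 123 and 124 CPM in KO liver, 81.8, 60.4 and 62.7 CPM in WT brain and 103, 71.2 and 85.5 CPM in KO brain. All KO liver values were under WT, and the brain values overlapped. The difference of effects was -0.54 (SE 0.24, edgeR p 0.0375, adjusted p 0.443), or -0.31 without mouse A and -0.19 with the GC and length offset. Cox7c stood at 70.2, 75.7 and 58.2 CPM in WT liver and 56.9, 64.0 and 48.3 CPM in KO liver, with a difference of effects of -0.49 (SE 0.21, edgeR p 0.0373, adjusted p 0.443) whose sign turned with the GC and length offset (0.07).

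**Figure D4:**
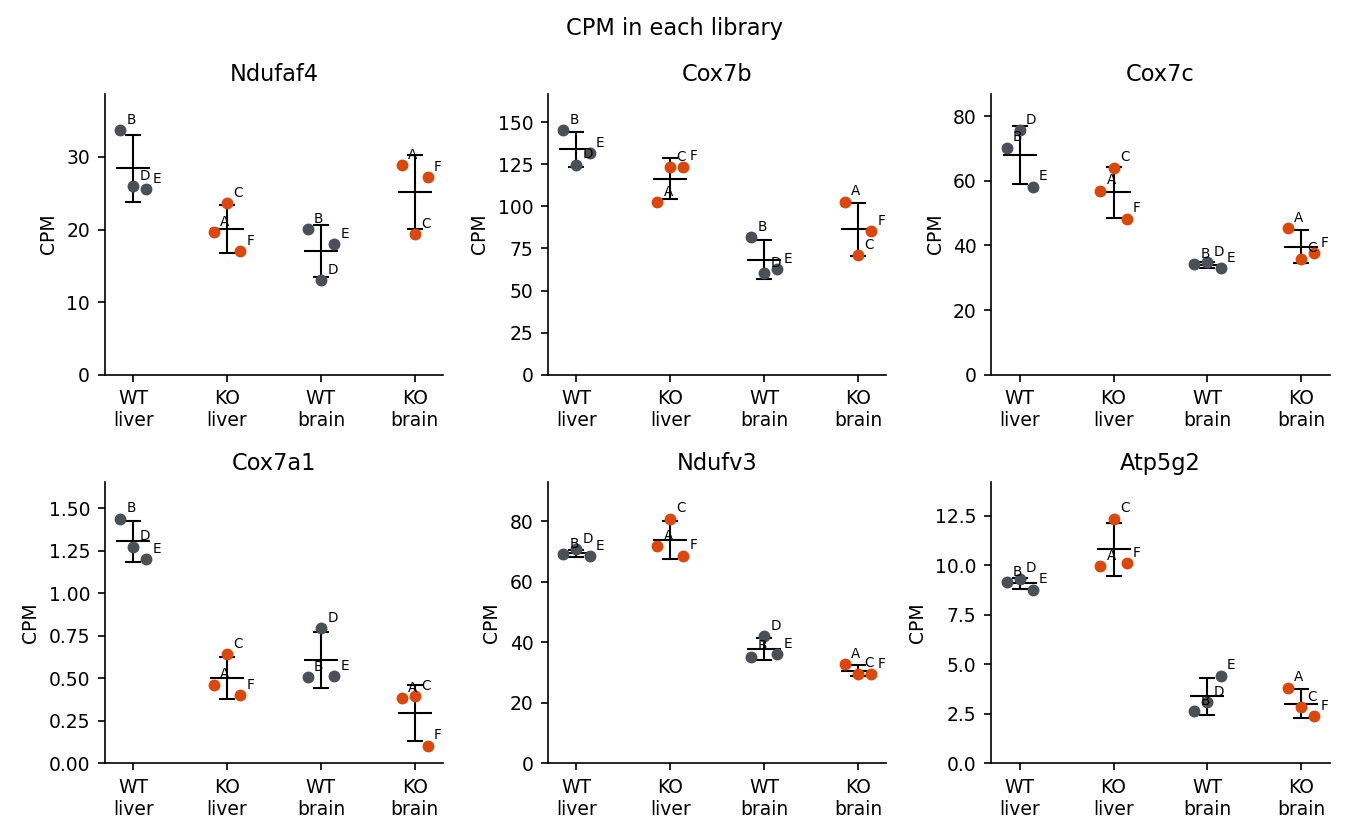
CPM of 6 genes in each library (points, with the letter of the mouse), with the mean and SD of the 3 libraries per group (black). All KO points of Ndufaf4 lie under WT in liver and overlap in brain, where mice A and F lie above WT, while all KO points of Cox7a1 lie under WT in both tissues.

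The genes of the group differ in base composition, and their KO fold changes varied with it. In the tertile of lowest GC content (37.0 to 48.4% GC), 24 of 30 genes were lower in KO liver (median -0.15), against 14 of 27 in the highest tertile (median -0.00). In brain the order was the opposite, with 10 of 30 lower in the lowest tertile (median 0.02) and 23 of 30 in the highest tertile (median -0.14). Spearman's rho of fold change with GC content was 0.42 in liver over the 85 genes and -0.32 in brain over the 89. Over all genes tested it was 0.25 and -0.41, so the relation was not limited to these genes. These are correlations across genes, which share libraries and are not independent. Ndufaf4 has a GC content of 39.5% and Cox7c of 38.4%, both in the lowest tertile. Whether GC content has a part in their values beyond the offset fits given above was not tested.

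**Figure D5:**
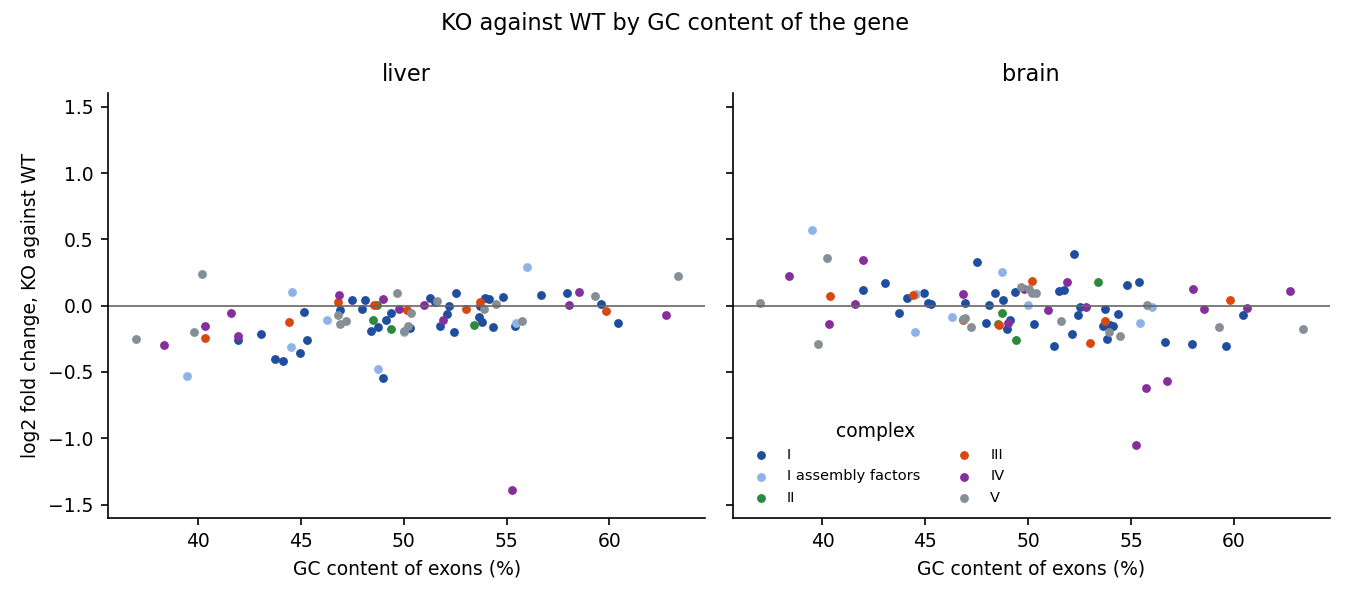
Log2 fold change of KO against WT (y axis) against the GC content of each gene (x axis), in liver (left) and brain (right). GC content is that of the exons in the longest annotated transcript, and each point is 1 gene coloured by complex. Points at low GC content lie mostly under 0 in liver, and points at high GC content lie mostly under 0 in brain.

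Other genes of the pathway were read from lists. These held assembly factors without the Ndufaf symbols, cytochrome c genes, regulators of mitochondrial biogenesis and mitochondrially encoded subunits. Their tissue differences are given without the GC and length offset. With it, 38.4% of the main group were called higher in WT liver, against 40.6% of all genes. How the offset moves these lists was not tested. Of 48 further assembly factors, 47 were tested in WT liver against WT brain, 28 were higher in liver (59.6%, against 35.4% of all genes) and 7 lower (14.9%, against 42.9%), and the median was 0.63. Sco2, a copper chaperone of complex IV, was higher by 3.02 on the log2 scale, Nubpl, an iron-sulfur factor of complex I, by 1.97 and Cox15, a heme A synthase, by 1.79. Ttc19 and Uqcc2, both of complex III, were lower in liver (log2 -1.58 and -1.16), as was Atpaf1 of complex V (-1.13). Complex III had 8 of 8 subunit genes higher in liver, while of its 6 assembly factors 2 were higher and 3 lower. Between KO and WT none of the 47 was called in liver, where 1 stood at an unadjusted p under 0.05 (against 7.33% of all genes), or in brain, where 3 did, all lower (against 11.0%). The lowest of these, chosen after its values were seen, was Sco2, which DESeq2 did not call either, with 12, 26 and 25 counts in WT brain and 2, 3 and 6 in KO brain (log2 -2.06, SE 0.53, edgeR adjusted p 0.320).

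Cyc1, the cytochrome c1 subunit of complex III that the symbol rule does not take in, was higher in WT liver than in WT brain (log2 1.21, with 120, 103 and 114 CPM against 44.2, 55.6 and 47.4 CPM). Cycs, the somatic cytochrome c, did not pass the test (log2 0.21), and the testis form Cyct had 0 counts. Of 13 regulators, 12 were tested between WT tissues, with 6 higher in liver (against 35.4% of all genes) and 2 lower (against 42.9%). Gabpa, which codes for the DNA-binding part of GABP, was higher (log2 1.70, SE 0.15), as was the mitochondrial transcription factor Tfam (0.86, SE 0.16). The coactivator Ppargc1a, at 22.1, 16.2 and 34.9 CPM in WT liver and 44.5, 43.9 and 42.4 CPM in WT brain, was lower in liver (log2 -0.83, SE 0.24, edgeR adjusted p 0.0102), and so was Ppargc1b (-1.01, SE 0.17). In KO against WT, Ppargc1a differed by -0.29 in liver (SE 0.36, edgeR adjusted p 0.925) and by 0.18 in brain (SE 0.13, edgeR adjusted p 0.590), and none of the regulators was called in either tissue by edgeR or DESeq2. At an unadjusted p under 0.05 edgeR had 2 of them in liver, both higher, against 7.33% of all genes, and 0 in brain, against 11.0%.

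The mitochondrially encoded subunits summed to 30011 ± 2815 CPM in WT liver and 28457 ± 3394 in KO liver, and to 13224 ± 2341 in WT brain and 16717 ± 2111 in KO brain (SD, n = 3), with overlapping ranges between genotypes, unlike the share of counts from the whole mitochondrial genome given above. Of the 13, mt-Nd4l, mt-Co2, mt-Co3, mt-Atp6 and mt-Atp8 are listed at 0 to 5 counts in every library although every cell uses them, so their level was not read. Of the 8 tested, 7 were higher in WT liver than in WT brain (against 35.4% of all genes), with a median of 1.32, and 5 were higher in KO liver than in KO brain (against 36.2%). In KO against WT brain 4 of the 8 stood at an unadjusted p under 0.05, all higher, against 11.0% of all genes in either direction, and the median was 0.53, against -0.02 over the nuclear genes. None was called in either tissue by edgeR, and DESeq2 called 1 of the 8 to which it gave an adjusted p in brain, mt-Nd4 (DESeq2 adjusted p 0.0344), or 12.5%, against 1.58% of all genes.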

How the data were processed

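Per the submitters' processing notes, the authors made the files with bcl2fastq, FastQC 0.11.5, Trimmomatic, STAR 2.7.3a and featureCounts. Reads were aligned to mm10 and assigned to exons with the reverse-stranded setting, which the study states for these tissues. The authors deposited raw counts per gene, with the merged exon length of each gene, in 1 table of 12 libraries, and no normalisation was applied before deposit. Library names in the table matched the labels, which give genotype, tissue and mouse.

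Genes were selected by symbol, and sequences came from RefSeq (GRCm38.p6). The members and lists were chosen with earlier results of these data known. Comparisons used edgeR 4.0.16 in R 4.3.3 (TMM, the filter of filterByExpr, a robust quasi-likelihood fit) on all genes, with Benjamini-Hochberg adjustment and a threshold of 0.1. Each tissue was fitted alone for KO against WT, each genotype alone for liver against brain, and all 12 libraries together for the interaction. P-values measure the spread between 3 mice per group. CPM used the total of all genes in a library scaled by TMM over the 12 libraries, and the RPKM scale divided it by the deposited exon length. Summed CPM use the same scale. A count of 0 was read as up to 3 counts, and such limits cover counting error only. Fits were tested on simulated data.

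Alternatives were RLE size factors, no filter, DESeq2 1.42.0, leaving out mitochondrially encoded genes, a per-library offset on GC content and exon length (mgcv 1.9.3), all 12 libraries in one fit, a covariate for Y-linked transcripts, mouse as a replicate block, and each mouse left out. GC content was that of the longest annotated transcript of each gene, while exon length was the merged length. Liver and brain with one mouse letter come from the same animal, so mouse pairs the tissues by design. The deviations of both tissues of 1 mouse from their group means correlated at -0.06 to 0.13 over 12574 genes and at -0.05 to 0.31 over the 85 genes of the group tested in both.

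Genes were named by rule. Between genotypes these were called genes and up to 4 in each direction, by p, whose groups did not overlap. For the interaction they were called genes or otherwise the 3 of smallest p, and for the tissues the 6 called with the largest difference in each direction in WT. Levels were given for isoform families and for the highest gene of each complex, and of other lists up to 4 called genes in each direction and Ppargc1a. Genes outside this rule, whether or not marked so, are to be read as chosen after their values were seen. A further gene was left out of the group and is not reported here.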

Additional observations from a re-analysis of the deposited data

How the results depend on the processing

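Between genotypes, no gene of the group was called by edgeR or DESeq2 in either tissue, except Ndufaf4, 1 of 91 in brain with no filter (1.10%, against 3.15% of all genes) and 1 of 86 for the interaction with DESeq2 (1.16%, against 2.08%). Leaving out 1 mouse moved the median log2 fold change of the group from -0.17 to -0.03 in liver, from -0.11 to 0.02 in brain and from -0.17 to 0.11 for the interaction. The GC and length offset turned the sign of Cox7c in brain (-0.24), of Ndufaf7 in brain (-0.018) and of Cox7c in the interaction (0.0695).

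The tissue comparison depended most on that offset, which gave 33 higher and 30 lower with a median of 0.0013 in WT (40.6% and 42.5% of all genes), and 32 higher and 26 lower with a median of -0.0266 in KO (41.5% and 42.2% of all genes). DESeq2 gave 58 higher and 10 lower of 91 with a median of 0.67 in WT, and 59 higher and 8 lower of 91 in KO. Over all genes with a count it called 15588 of 32005 in WT and 15835 of 31614 in KO, in either direction. The fit with no filter gave a median of 0.72 in WT, and both took in more low-count genes. Leaving out 1 mouse gave medians of 0.74 to 0.88 in WT and 0.64 to 0.90 in KO, and 2 (without A) to 7 (without C) lower in KO, or 3 without F. In either direction, these KO fits called 13555 of all 17968 genes without A, 13654 of 17815 without C and 13106 of 17555 without F.

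With mouse as replicate block, the pairing by animal gave 61 higher and 4 lower of 86 in WT and 60 higher and 3 lower of 84 in KO. In either direction it called 13588 of all 17694 genes in WT and 13614 of all 17396 in KO. For the interaction it called 0 of the group, against 0.359% of all genes. The calls lost included those of Ndufb2 in WT and Ndufaf7 in both. With RLE size factors the median over all genes moved from -0.16 to -0.24 in WT. The cause of these changes was not tested. Genes with few counts, such as Cox7a1 and Cox4i2, are limited by depth.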
